A study of Homo sapiens with 6 samples.

Results

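The genes described here build and police the mitotic spindle: the mitotic kinesins, the kinetochore proteins of the CENP series and the Ndc80 complex, the spindle checkpoint, the mitotic kinases and a set of spindle and proliferation genes. They are set beside the kinesins that carry cargo in the cytoplasm. Members were chosen by symbol alone, as KIF followed by a number, as CENP followed by a letter, or as 1 of a list of named mitotic genes, and 84 of the 28265 rows of the count table matched. By role, 56 were classed as mitotic members, 13 as transport kinesins of the kinesin-1, kinesin-2 and kinesin-3 families and 13 as other kinesins. The last 2, CENPJ and CENPV, carry a CENP name but were set apart. These classes were a choice, and CENPV or KIF2A could also be placed among the mitotic members.

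RNA was sequenced from Huh7, an established line of human hepatocellular carcinoma cells, grown in high-glucose medium with fetal bovine serum. One group received a lentiviral vector expressing LHX2, a LIM-homeodomain transcription factor, and the other a control vector, both for 48 h, with 3 libraries each. The labels also call the control cells parental. They name neither the promoter of the vector, nor a selection of transduced cells, nor whether replicates were separate cultures, so the p-values cover the spread among these 6 libraries and nothing wider, and that spread may be technical.

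In a dividing cell the kinetochore, assembled on CENPA chromatin, grips spindle microtubules through the Ndc80 complex and the motor CENPE. Until every kinetochore is attached, the checkpoint proteins MAD2, BUBR1 and BUB3 hold CDC20 inactive and so restrain the anaphase promoting complex. Mitotic kinesins push poles apart, shorten microtubules or carry the cytokinesis machinery, while kinesin-1, kinesin-2 and kinesin-3 motors move organelles and vesicles in cells at any stage. Most mitotic genes are transcribed in G2 and M phase, so in an asynchronous culture their transcripts are widely read as marks of cycling cells.

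Total counts lay between 30029313 and 35194438 in the LHX2 libraries and between 32625405 and 39653681 in the control libraries. LHX2 itself had 2535, 2427 and 3126 counts in LHX2 replicates 1 to 3, against 1, 2 and 1 counts in control replicates 1 to 3. Summed over 9 hepatocyte markers, most of it from AFP and ALB, the level was 45902 to 50131 CPM (read counts scaled to a common library size with TMM factors) in LHX2 libraries and 48902 to 50241 CPM in control libraries, and all 9 passed the filter on low counts. Of these markers SERPINA1 (log2 fold change -0.30), HNF4A (-0.26) and TTR (-0.17) fell, GPC3 (0.25) and TF (0.22) rose, and ALB, AFP, APOA1 and APOB did not pass. Of the markers of other cell types, 5 fibroblast markers summed to 46.5 to 52.6 CPM in LHX2 and 17.5 to 19.5 CPM in control libraries, and 3 leukocyte markers to 16.0 to 17.2 CPM and 7.76 to 9.40 CPM. The fibroblast sum came mostly from COL1A2, which averaged 36.8 CPM in LHX2 and 9.26 CPM in control libraries, with LUM at 12.7 CPM in LHX2 and 9.01 CPM in control libraries. PDGFRB was lower with LHX2, at 0.0405 CPM in LHX2 and 0.208 CPM in control libraries, and COL1A1 overlapped between the groups, both under the filter and not tested. The leukocyte sum was nearly all CD68, at 16.5 CPM in LHX2 and 8.35 CPM in control libraries. The 3 endothelial markers summed to 2.78 to 3.22 CPM in LHX2 and 3.75 to 4.28 CPM in control libraries. CDH5 and CD3E had 0 counts in all libraries and DCN had 1 count in the 6 libraries together. The part of these markers in the results was not tested. In bulk RNA, fewer cells of a kind and less RNA per cell cannot be told apart.

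Mitotic genes moved little and in both directions. Of 55 tested mitotic members 10 rose and 8 fell with LHX2 (edgeR quasi-likelihood test, Benjamini-Hochberg adjusted p under 0.05 over all 14533 genes tested), and 37 did not pass. KIF2A (-0.14) and CENPV (-0.22), both called lower, were classed outside the mitotic members and are not in these counts. Among all genes tested 32.5% were called, 16.6% higher and 15.8% lower. The mitotic members were called in 32.7% of cases, 18.2% higher and 14.5% lower, shares near that background. Their median log2 fold change was 0.04, against 0.01 over all genes tested. Their median absolute log2 fold change was 0.10, against 0.16 over all genes, which on average had fewer counts and so a larger error (median SE 0.05 for the mitotic members and 0.07 for all genes). The largest change among the mitotic members was 0.44, and only CENPE and SPC25 moved by more than 0.3.

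The largest changes among the members were those of the transport kinesins KIF5A, KIF13A and KIF5C. Of 11 transport kinesins tested, 4 rose, 1 fell and 6 did not pass. Their median log2 fold change was 0.08, and their median absolute value of 0.16 was the same as over all genes tested (0.16). Changes over 0.3 in absolute size were fitted for 4 of 11 transport kinesins, 2 of 55 mitotic members and 3639 of all 14533 genes. Among these 4 transport kinesins was KIF3C (0.30), which was not called. The difference between the mitotic members and the transport kinesins was not tested, and both were read from the same 6 libraries. Over all 84 members 77 were tested, of which 15 rose, 11 fell and 51 did not pass. All 3 LHX2 libraries lay above all control libraries in 23 members and below them in 11, while over all genes tested this held for 22.9% and 22.1%, or 44.9% in either direction. Scaled by library totals alone, the split of members was 22 higher and 7 lower, that of mitotic members 15 higher and 6 lower, and that of transport kinesins 5 higher and 1 lower. This scaling moved the split of all genes too, to 2800 higher and 1886 lower, so that 59.8% of called genes were higher, against 51.2% with TMM factors. Single libraries also moved these counts: without control replicate 1 mitotic members counted 6 higher and 6 lower, and 6 higher and 5 lower when control replicate 2 was the one left out.

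**Figure D1:**
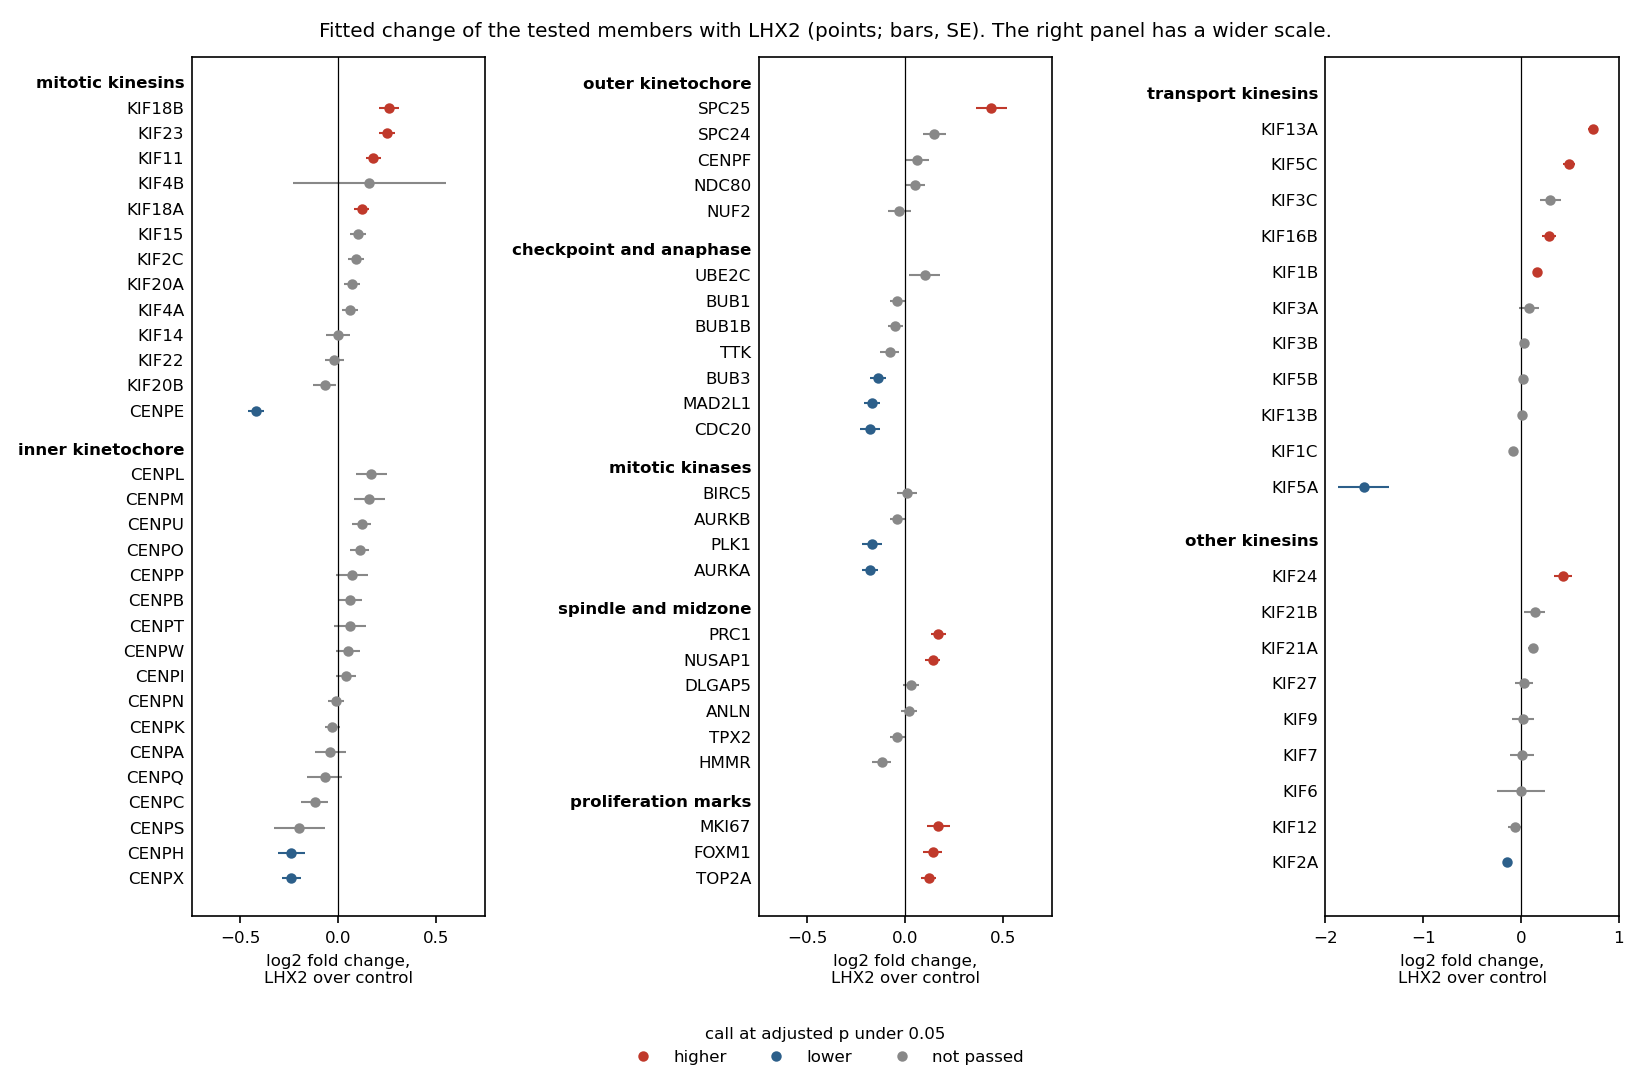
Log2 fold change of LHX2 over control for the tested members by role, with bars for the SE of the edgeR fit over 3 libraries a group and colours for the call. Mitotic members (left and middle) lie between -0.42 and 0.44, and transport kinesins (right, wider axis) between -1.61 and 0.74.

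Among the mitotic kinesins 4 rose, 1 fell and 8 of 13 tested did not pass. CENPE, the kinetochore motor that brings chromosomes to the metaphase plate, fell: it had 224, 235 and 215 CPM in LHX2 replicates 1 to 3, against 299, 300.2 and 301 CPM in control replicates 1 to 3. The groups were far apart, and the control libraries were almost identical. The log2 fold change was -0.42 ± 0.04 (SE, edgeR adjusted p = 1.8e-06), a level 25.2% below control, and CENPE stayed between -0.47 and -0.39 under every alternative tried.

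KIF18B, which depolymerises microtubule plus ends near the cortex, had 71.9, 79.8 and 76.2 CPM in LHX2 libraries and 66.0, 58.5 and 65.8 CPM in control libraries. It rose by 0.26 ± 0.05 (SE, adjusted p = 1.9e-03). KIF23, the motor of the centralspindlin complex needed for cytokinesis, had 136, 140.1 and 138 CPM in LHX2 libraries and 120.5, 116 and 112 CPM in control libraries. It rose by 0.25 ± 0.04 (SE, adjusted p = 2.5e-04). KIF11, the motor Eg5 that separates the spindle poles, had 177, 184 and 177 CPM in LHX2 libraries and 158, 162 and 155 CPM in control libraries, a rise of 13.3% (0.18 ± 0.04, adjusted p = 2.0e-03). For each of the 3 motors every LHX2 library lay above every control library.

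KIF18A, which damps chromosome movements at the metaphase plate, rose less: 103, 103 and 101 CPM in LHX2 libraries and 94.8, 93.2 and 95.1 CPM in control libraries (0.12 ± 0.04, adjusted p = 0.026). This call was lost without any 1 library except LHX2 replicate 3, at values of 0.11 to 0.12, with no low-count filter (0.12) and in DESeq2 (0.11, adjusted p = 0.066). The motors that did not pass include KIF15, which can stand in for Eg5 (0.10 ± 0.04), KIF2C, the depolymerase MCAK (0.09 ± 0.04), KIF20A, which carries the passenger complex to the midzone (0.07 ± 0.04), KIF4A (0.06 ± 0.04), KIF14 (0.00 ± 0.06), the chromokinesin KIF22 (-0.02 ± 0.05) and KIF20B (-0.07 ± 0.06). KIF20B had 88.4, 104 and 87.8 CPM in LHX2 libraries and 97.2, 98.4 and 98.6 CPM in control libraries, and it was called lower (-0.15, adjusted p = 0.013) without LHX2 replicate 2. KIF15 (0.13) and KIF2C (0.12) were called higher with library totals alone, and KIF2C also without LHX2 replicate 3 (0.12). KIF4B, a near copy of KIF4A whose reads may be shared with it, had 8 to 15 counts in LHX2 and 9 to 17 counts in control libraries. KIF2B had 0 counts in every library and was not tested.

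Few inner kinetochore genes passed. Of 17 tested CENP members of this layer 2 fell and 15 did not pass, with a median log2 fold change of 0.04. Called were thus 11.8%, against 32.5% of all genes tested, a difference that was not tested. Their median level was 27.1 CPM and their median SE 0.07, against 88.9 CPM and 0.05 for the mitotic members. Over all genes tested these medians were 20.7 CPM and 0.07. CENPX, a histone-fold protein of the CENP-T-W-S-X complex, had 37.7, 35.3 and 34.6 CPM in LHX2 libraries and 41.6, 43.3 and 41.9 CPM in control libraries, and fell by 0.24 ± 0.05 on the log2 scale (SE, adjusted p = 2.1e-03). CENPH, which joins CENPI, CENPK and CENPM in 1 complex, had 15.2, 16.3 and 16.7 CPM in LHX2 libraries and 19.7, 19.4 and 17.7 CPM in control libraries (-0.24 ± 0.07, adjusted p = 0.025). The call for CENPH was lost without LHX2 replicate 1, control replicate 1 or control replicate 2, at -0.22 to -0.20, with library totals alone (-0.21), and after each library was corrected for transcript length and GC content (-0.16).

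Partners within these complexes did not move with them past the threshold. CENPS differed by -0.20 ± 0.13, CENPT by 0.06 ± 0.08 and CENPW by 0.05 ± 0.06, and CENPS had 129 to 138 counts in LHX2 and 135 to 205 counts in control libraries. CENPS also overlaps an annotated read-through gene that had 0 counts, so its reads may be undercounted. CENPI (0.04 ± 0.05), CENPK (-0.03 ± 0.04) and CENPM (0.16 ± 0.08) did not pass either. The centromeric histone CENPA lay at 10.5 to 11.02 CPM in LHX2 libraries and 10.7 to 11.4 CPM in control libraries, overlapping groups (-0.04 ± 0.08). The other members, CENPB, CENPC, CENPL, CENPN, CENPO, CENPP, CENPQ and CENPU, lay between -0.12 and 0.17. With library totals alone CENPO (0.14) and CENPU (0.14) were called higher, and with the length and GC correction CENPL (0.21) and CENPU (0.18) were.

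In the outer kinetochore 1 subunit of the Ndc80 complex stood apart. SPC25, which with SPC24 forms the end of the complex that docks on the inner kinetochore, had 40.5, 38.5 and 32.3 CPM in LHX2 libraries and 25.9, 26.8 and 29.3 CPM in control libraries. All LHX2 libraries lay above all control libraries, with replicate 3 the lowest of the LHX2 group, and SPC25 rose by 0.44 ± 0.08 (SE, adjusted p = 6.4e-04). SPC24 had 43.6, 41.0 and 40.2 CPM in LHX2 libraries and 39.6, 35.4 and 37.7 CPM in control libraries and missed the threshold (0.15 ± 0.06, adjusted p = 0.055). It was called higher in 5 alternatives, at 0.15 to 0.19. NDC80 had 73.9, 77.0 and 69.9 CPM in LHX2 libraries and 70.0, 73.5 and 68.9 CPM in control libraries (0.05 ± 0.05). With the length and GC correction NDC80 was called higher (0.11, adjusted p = 0.049), and 3 of the 5 outer kinetochore members were. NUF2 (-0.03 ± 0.06) and CENPF, a large outer kinetochore protein (0.06 ± 0.06), did not pass. Per kilobase of the longest annotated transcript, SPC25 stood at 27.4 CPM per kb in LHX2 and 20.2 CPM per kb in control libraries, between NDC80 (33.9 and 32.6 CPM per kb) and SPC24 (18.0 and 16.2 CPM per kb). The difference in change between the 4 subunits was not tested.

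Of 7 members of the checkpoint and anaphase group 3 fell and 4 did not pass, with a median log2 fold change of -0.08. MAD2L1, which encodes the checkpoint effector MAD2, had 159, 168 and 168 CPM in LHX2 libraries and 185, 188 and 183 CPM in control libraries (-0.17 ± 0.04, adjusted p = 3.6e-03). BUB3, which docks BUB1 and BUBR1 at the kinetochore, had 214, 203 and 203 CPM in LHX2 libraries and 229, 226 and 228 CPM in control libraries (-0.14 ± 0.04, adjusted p = 0.012). CDC20, the activator of the anaphase promoting complex that the checkpoint holds back, had 138, 123 and 136 CPM in LHX2 libraries and 154, 153 and 141 CPM in control libraries (-0.18 ± 0.05, adjusted p = 0.015). In each of these genes the groups did not overlap, and the level of MAD2L1 fell by 10.9% and that of CDC20 by 11.5%.

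The other 4 overlapped between the groups. BUB1, a checkpoint kinase, had 93.1, 92.5 and 93.1 CPM in LHX2 libraries and 94.2, 99.6 and 92.8 CPM in control libraries (-0.04 ± 0.04). BUB1B, which encodes BUBR1, had 135, 146 and 135 CPM in LHX2 libraries and 141, 142 and 147 CPM in control libraries (-0.05 ± 0.04). TTK, the kinase MPS1 at the head of the checkpoint, had 101, 100.4 and 89.0 CPM in LHX2 libraries and 97.4, 105 and 106 CPM in control libraries (-0.08 ± 0.05). UBE2C, the E2 enzyme of the anaphase promoting complex, had the largest SE of this group, at 90.1, 92.6 and 107 CPM in LHX2 and 97.5, 98.1 and 75.8 CPM in control libraries (0.10 ± 0.08). The call for CDC20 was lost without LHX2 replicate 2 (-0.13), control replicate 1 (-0.15) or control replicate 2 (-0.16).

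Of the mitotic kinases and the passenger complex 2 of 4 fell and 2 did not pass. AURKA, the spindle pole kinase Aurora A, had 155, 153 and 152 CPM in LHX2 libraries and 176, 174 and 171 CPM in control libraries. Its libraries were tight and apart, and it fell by 0.18 ± 0.04 on the log2 scale (SE, adjusted p = 1.7e-03). AURKB, the kinase Aurora B of the passenger complex, had 108, 106 and 104 CPM in LHX2 libraries and 107, 106 and 114 CPM in control libraries (-0.04 ± 0.04), and its partner BIRC5, survivin, differed by 0.01 ± 0.05. PLK1, Polo-like kinase 1, had 62.0, 58.7 and 67.9 CPM in LHX2 libraries and 74.2, 69.8 and 68.1 CPM in control libraries (-0.17 ± 0.05, adjusted p = 0.030). The groups nearly touched, and the PLK1 call was lost without LHX2 replicate 1 or 2 or control replicate 1 or 2, at -0.18 to -0.12, and with library totals alone (-0.14).

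**Figure D2:**
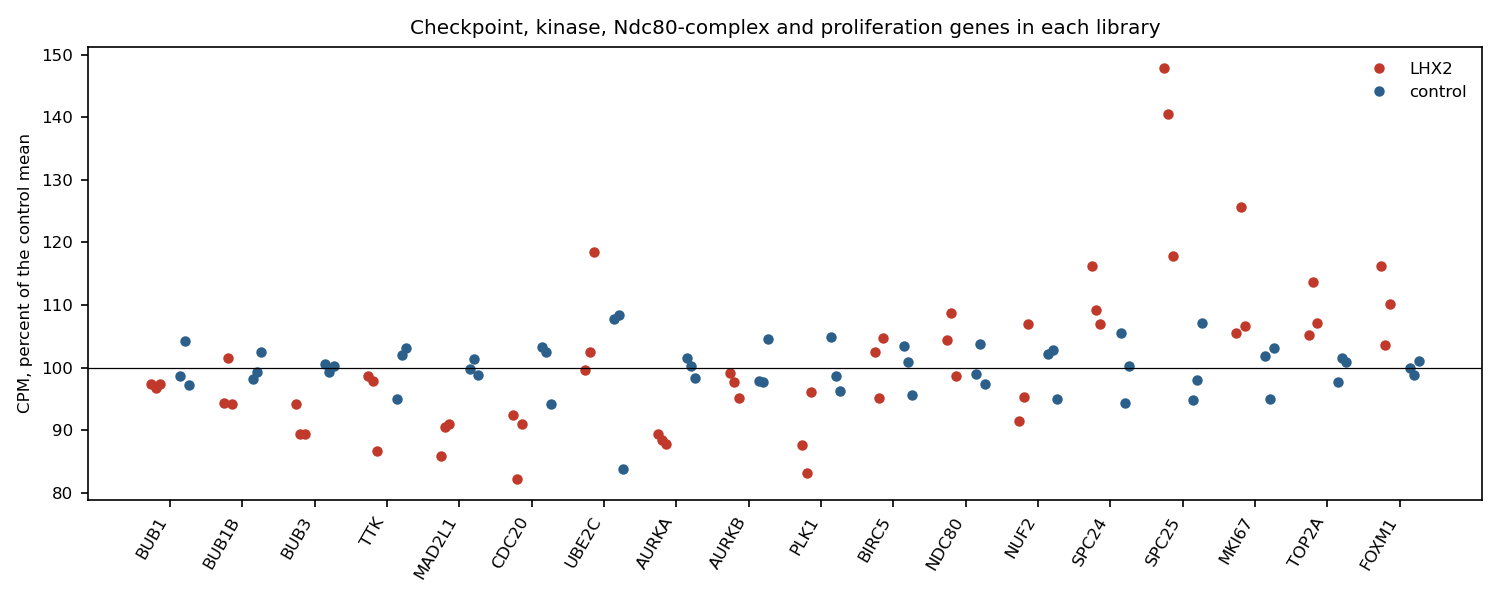
Level of 18 checkpoint, kinase, Ndc80-complex and proliferation genes in each library, as a percent of the mean CPM of the 3 control libraries (line at 100). The LHX2 points of MAD2L1, BUB3, CDC20, AURKA and PLK1 lie below all control points, and those of SPC24, SPC25, MKI67, TOP2A and FOXM1 above them. LHX2 replicate 2 is the highest point of MKI67 and TOP2A.

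Spindle and midzone genes gave 2 rises among 6. PRC1, which bundles antiparallel microtubules of the midzone, had 160.0, 167 and 168 CPM in LHX2 libraries and 143, 147 and 150.2 CPM in control libraries (0.17 ± 0.04, adjusted p = 3.9e-03). NUSAP1, a spindle-stabilising protein, had 203, 204 and 198 CPM in LHX2 libraries and 180.0, 186 and 185 CPM in control libraries (0.14 ± 0.04, adjusted p = 0.010), and its call was lost without control replicate 1 (0.12). TPX2, the activator of Aurora A (-0.04 ± 0.04), DLGAP5 (0.03 ± 0.04), the cytokinesis scaffold ANLN (0.02 ± 0.04) and HMMR (-0.12 ± 0.05, adjusted p = 0.058) did not pass. HMMR was called lower with RLE factors (-0.13) and without LHX2 replicate 2 or control replicate 1 (-0.16 each).

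The class of proliferation marks held only MKI67, TOP2A and FOXM1. All 3 rose slightly, and each call was lost in several alternatives. Over all 55 tested mitotic members 10 rose and 8 fell. Those that fell include AURKA (-0.18), CDC20 (-0.18) and PLK1 (-0.17), which were placed in other classes. Whether more cells divided was not tested. MKI67, the Ki-67 antigen, had 313, 372 and 316 CPM in LHX2 libraries and 302, 281 and 306 CPM in control libraries (0.17 ± 0.06, adjusted p = 0.038). TOP2A, topoisomerase II alpha, had 1056, 1142 and 1076 CPM in LHX2 libraries and 981, 1019.5 and 1014 CPM in control libraries (0.12 ± 0.04, adjusted p = 0.039). FOXM1, a transcription factor of G2 and M phase genes, had 91.8, 81.9 and 87.0 CPM in LHX2 libraries and 79.0, 78.1 and 79.9 CPM in control libraries (0.14 ± 0.05, adjusted p = 0.031). The groups did not overlap in any of the 3. None of the 3 was called without control replicate 1 or control replicate 2, and without LHX2 replicate 2 the values were 0.09 for MKI67 and 0.09 for TOP2A, neither called. FOXM1 was also lost without LHX2 replicate 1 (0.09) or 3 (0.14) or control replicate 3 (0.15), and in DESeq2 (0.13), and TOP2A without control replicate 3 (0.13).

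MKI67 has the longest transcript of the set. With the correction for transcript length and GC content, its log2 fold change was 0.00 (adjusted p = 0.99). Over the 77 tested members the fitted changes had a Pearson correlation of 0.09 with log2 transcript length before that correction and of -0.11 after it. Within the LHX2 group, the deviation of replicate 2 from the group mean had a correlation of 0.19 with length over these members, and that of replicate 1 had -0.21. Within the control group, replicate 3 had 0.32 and replicates 1 and 2 had -0.16 and -0.17. These are descriptions over genes that share the same 6 libraries. CENPF, another long transcript, had 242, 285 and 239 CPM in LHX2 libraries and 243, 240.0 and 253 CPM in control libraries.

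**Figure D3:**
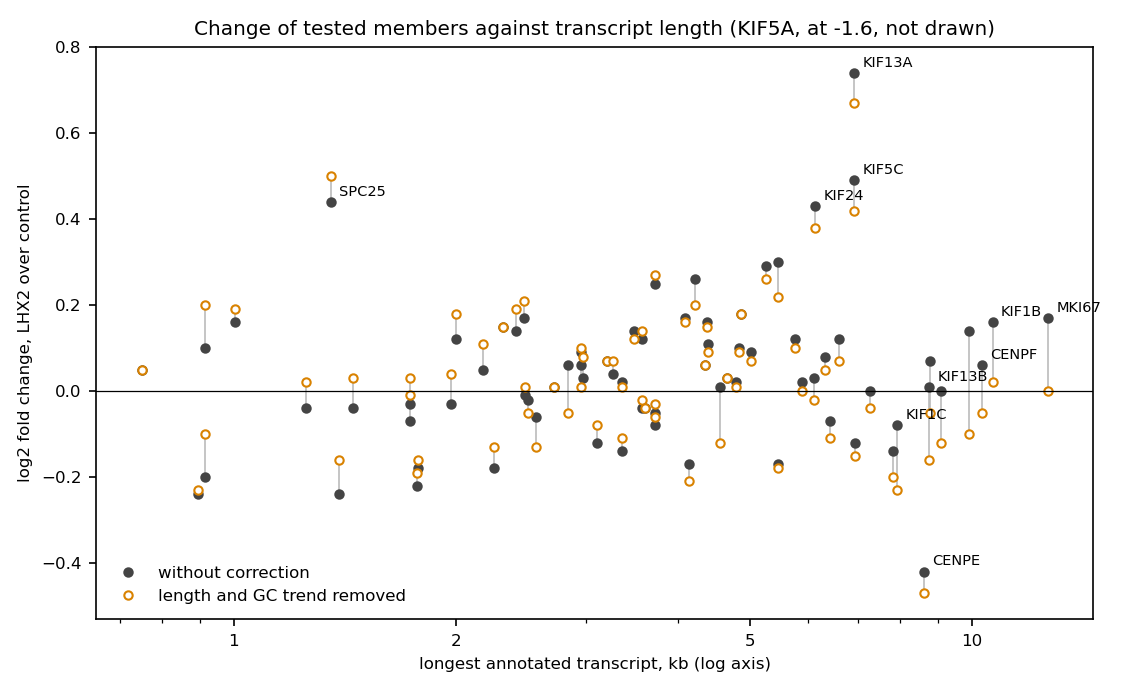
Log2 fold change of LHX2 over control against the length of the longest annotated transcript (log axis) for the tested members, before (filled) and after (open) the correction for length and GC content; KIF5A, at -1.61, lies outside the axis. The correction takes MKI67 from 0.17 to 0.00 and KIF1B from 0.16 to 0.02, and leaves CENPE, KIF13A, KIF5C and SPC25 beyond 0.3 in size.

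Promoters of the mitotic members share letters that are less frequent in those of all genes tested and of the transport kinesins. Cell-cycle genes of G2 and M phase are known to be controlled through the cell cycle genes homology region (CHR), bound by the DREAM and MYB-MuvB complexes, together with CCAAT boxes bound by NF-Y. The letters TTTGAA or TTCGAA for the CHR and CCAAT for the box were sought on both strands in RefSeq promoters (GRCh38.p14). The window ran from 250 bases before to 50 after the start of the promoter record. For some members, among them KIF5C, CENPI and AURKB, it lay inside the annotated gene, downstream of the outermost start. A RefSeq promoter was found for 45 of the 55 tested mitotic members. Of these, 31 (68.9%) held CHR letters, 32 (71.1%) CCAAT letters and 25 (55.6%) both. Among promoters of the 11306 tested genes that had one, the shares were 11.8%, 36.9% and 4.91%. Of 11 transport kinesin promoters 1 (9.09%) held CHR letters, that of KIF5B, and 3 (27.3%) held CCAAT letters. With so few promoters these shares cannot be told from those of all genes tested, and the difference was not tested. The CHR was described on genes of this kind, so its frequency here is not independent of how the members were chosen.

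The following 150 bases upstream of the gene start are shown because they set members that rose beside members that fell. CHR and CCAAT letters are in capitals on either strand (TTCAAA and ATTGG are the reverse complements), and each sequence runs 5′ to 3′ on the strand of the gene.
KIF11 (higher), chr10:92592980-92593129, plus strand: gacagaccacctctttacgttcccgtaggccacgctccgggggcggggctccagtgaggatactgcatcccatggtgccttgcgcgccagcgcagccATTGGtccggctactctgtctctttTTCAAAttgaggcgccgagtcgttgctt
KIF23 (higher), chr15:69414199-69414348, plus strand: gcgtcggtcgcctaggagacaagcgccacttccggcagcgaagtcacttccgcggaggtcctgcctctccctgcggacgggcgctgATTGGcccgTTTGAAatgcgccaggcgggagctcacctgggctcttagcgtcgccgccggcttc
PRC1 (higher), chr15:90994536-90994685, minus strand: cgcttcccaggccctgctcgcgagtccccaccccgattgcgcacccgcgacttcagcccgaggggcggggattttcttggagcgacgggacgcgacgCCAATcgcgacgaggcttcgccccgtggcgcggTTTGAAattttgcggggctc
PLK1 (lower), chr16:23678739-23678888, plus strand: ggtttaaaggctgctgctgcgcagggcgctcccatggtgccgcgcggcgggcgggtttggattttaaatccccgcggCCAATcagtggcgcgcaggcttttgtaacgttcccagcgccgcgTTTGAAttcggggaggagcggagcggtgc
CDC20 (lower), chr1:43358831-43358980, plus strand: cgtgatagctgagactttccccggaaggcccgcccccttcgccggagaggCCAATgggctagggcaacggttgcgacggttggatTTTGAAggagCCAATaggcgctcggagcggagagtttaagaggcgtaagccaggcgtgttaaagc
CENPE (lower), chr4:103198344-103198493, minus strand: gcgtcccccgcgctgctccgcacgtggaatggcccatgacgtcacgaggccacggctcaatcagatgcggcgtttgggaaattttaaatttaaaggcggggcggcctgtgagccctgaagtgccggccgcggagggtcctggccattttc
KIF13A (higher), chr6:17987636-17987785, minus strand: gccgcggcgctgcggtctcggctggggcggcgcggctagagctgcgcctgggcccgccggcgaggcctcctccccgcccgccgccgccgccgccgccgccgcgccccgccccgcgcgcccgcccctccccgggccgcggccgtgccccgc

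The motors KIF11 and KIF23 and the bundler PRC1, which rose, and PLK1 and CDC20, which fell, all carry a CHR and at least 1 CCAAT in this stretch. CENPE, with the largest fall of the mitotic members, held neither in its 300-base window, and neither did KIF13A. Neither set was found for KIF2C, CENPB, CENPI, CENPP, CENPS and CENPT either, none of which was called. A promoter was found for 9 of the 10 mitotic members that rose and for 5 of the 8 that fell. Both sets of letters were in all 9 of the former and in 3 of 5 of the latter, a difference that was not tested. These matches are letters in a window, and nothing about the binding of a factor was measured.

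The transport kinesins were led by kinesin-1 and kinesin-3 members. KIF13A, a kinesin-3 motor of recycling endosomes, had 65.4, 60.6 and 59.6 CPM in LHX2 libraries and 36.0, 37.0 and 38.1 CPM in control libraries. The groups were far apart, and KIF13A rose 1.67-fold (log2 fold change 0.74 ± 0.05, SE, adjusted p = 4.1e-08). Its close relative KIF13B had 70.8, 76.1 and 74.8 CPM in LHX2 libraries and 71.0, 74.0 and 75.7 CPM in control libraries (0.01 ± 0.04), but was called lower (-0.16, adjusted p = 3.9e-03) with the length and GC correction. Per kilobase of transcript, KIF13A stood at 8.94 CPM per kb in LHX2 and 5.34 CPM per kb in control libraries. KIF13B stood at 8.45 and 8.41 CPM per kb. KIF13A thus made up 51.4% ± 2.15 of the KIF13 pair in LHX2 libraries and 38.8% ± 0.170 in control libraries (SD, n = 3 each).

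The 3 kinesin-1 heavy chains moved apart. KIF5C, a heavy chain best known from neurons, had 31.4, 34.6 and 31.8 CPM in LHX2 libraries and 23.0, 23.6 and 22.8 CPM in control libraries, and rose 1.41-fold (0.49 ± 0.06, adjusted p = 2.2e-05). KIF5A, the other neuronal heavy chain, had 11, 19 and 14 counts in LHX2 libraries and 50, 56 and 40 counts in control libraries. It fell by 1.61 ± 0.26 on the log2 scale (SE, adjusted p = 2.9e-04), with a low level in both groups, at 0.459 ± 0.143 CPM in LHX2 and 1.40 ± 0.154 CPM in control libraries (SD, n = 3 each). KIF5B, the ubiquitous heavy chain, had 381, 385 and 369 CPM in LHX2 libraries and 371, 378 and 370.2 CPM in control libraries, with overlapping groups (0.02 ± 0.04). Per kilobase, KIF5B made up 93.1% ± 0.304 of the 3 heavy chains in LHX2 libraries and 94.7% ± 0.0562 in control libraries. The share of KIF5C was 6.80% ± 0.273 in LHX2 and 4.98% ± 0.0283 in control libraries, and that of KIF5A 0.114% ± 0.0332 and 0.358% ± 0.0390 (SD, n = 3 each).

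KIF16B, a motor of early endosomes, had 27.0, 25.4 and 28.4 CPM in LHX2 libraries and 21.1, 22.0 and 23.2 CPM in control libraries (0.29 ± 0.07, adjusted p = 3.8e-03). KIF1B, a carrier of mitochondria and vesicles, had 199.6, 215 and 203 CPM in LHX2 libraries and 176, 188 and 189.7 CPM in control libraries (0.16 ± 0.04, adjusted p = 0.012). The KIF1B call was lost without LHX2 replicate 2 (0.13) or control replicate 1 (0.12) and with the length and GC correction (0.02). KIF1C, a vesicle motor, overlapped between the groups (-0.08 ± 0.04), and it was called lower after that correction (-0.23) and without LHX2 replicate 3 (-0.12). With the correction the transport kinesins thus counted 3 higher and 3 lower.

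The kinesin-2 motors, which drive transport in cilia and elsewhere, did not pass. KIF3A differed by 0.08 ± 0.10 and KIF3B by 0.03 ± 0.04. KIF3C had 6.69, 5.97 and 7.08 CPM in LHX2 libraries and 4.76, 5.92 and 5.30 CPM in control libraries (0.30 ± 0.11, adjusted p = 0.054). KIF3C was called higher without LHX2 replicate 2 (0.37) or control replicate 2 (0.39), with library totals alone (0.33), with no low-count filter (0.30) and with one of 1 CPM in 3 libraries (0.31). KIF17 had 0, 1 and 1 counts in LHX2 and 2, 3 and 0 counts in control libraries, and KIF1A 1, 1 and 0 and 0, 1 and 0 counts. Neither was tested.

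**Figure D4:**
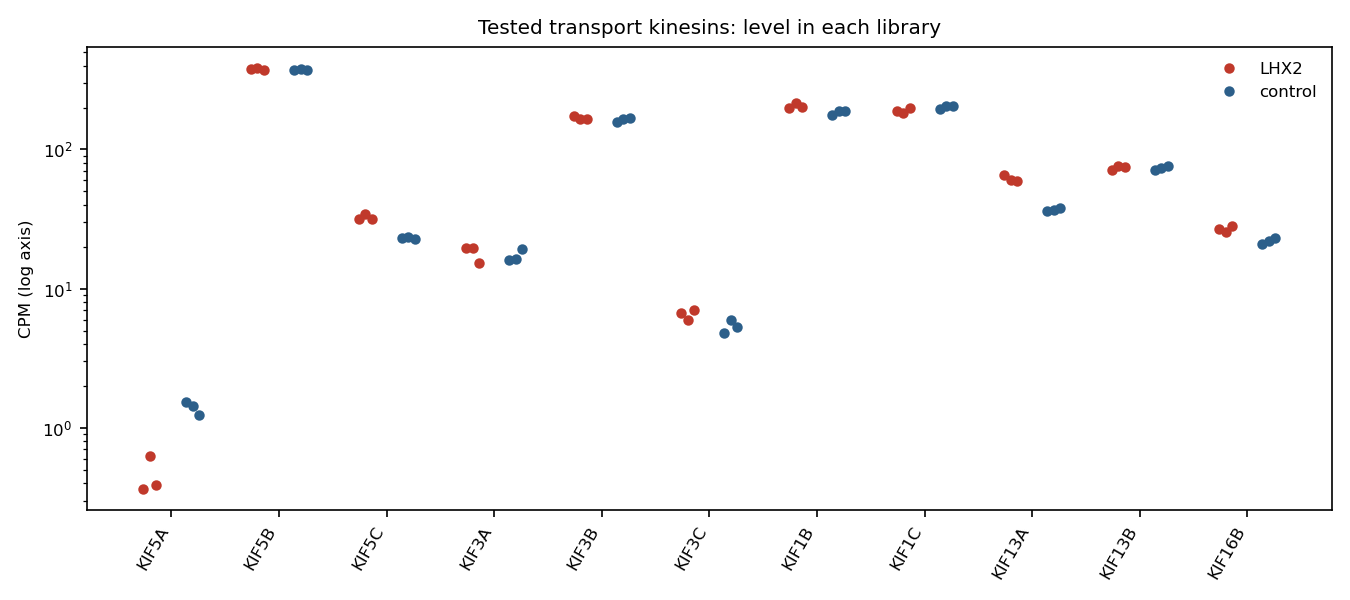
Level of the 11 tested transport kinesins in each library, in CPM on a log axis, for 3 LHX2 libraries (left of each pair) and 3 control libraries (right). KIF13A, KIF5C and KIF16B lie higher with LHX2 and KIF5A lower, while KIF5B stays at 369 to 385 CPM in all 6.

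Of the other kinesins 1 rose, 1 fell and 7 of 9 tested did not pass. KIF24, a kinesin of the mother centriole that restrains cilium formation, had 14.1, 14.7 and 13.2 CPM in LHX2 libraries and 10.4, 9.37 and 11.6 CPM in control libraries (0.43 ± 0.09, adjusted p = 2.1e-03). KIF2A, a microtubule depolymerase of spindle poles and neurons, had 89.4, 96.0 and 86.7 CPM in LHX2 libraries and 101, 99.6 and 99.1 CPM in control libraries (-0.14 ± 0.04, adjusted p = 0.024). The KIF2A call was lost with library totals alone (-0.11) and without LHX2 replicate 1 or 3 or control replicate 1 or 2 (-0.14 to -0.11). KIF21A, which restrains microtubule growth at the cell cortex, missed the threshold (0.12 ± 0.05, adjusted p = 0.056), as did KIF6, KIF7, KIF9, KIF12, KIF21B and KIF27, at -0.06 to 0.14. KIF21A was called higher with library totals alone (0.15) and without LHX2 replicate 3 (0.16) or control replicate 3 (0.15). It was also called with no low-count filter (0.12) and with one of 1 CPM in 3 libraries (0.13). KIF19 and KIF26A had 0 counts in all libraries, KIF25 0 to 2 and KIF26B 6 to 11, and these 4 were not tested. Of the CENP members set apart, CENPV had 19.5, 17.2 and 20.2 CPM in LHX2 libraries and 21.3, 22.5 and 22.4 CPM in control libraries (-0.22 ± 0.07, adjusted p = 0.033). This call was lost without LHX2 replicate 2 (-0.15), control replicate 2 or control replicate 3 (-0.21 each) and with library totals alone (-0.19). CENPJ, a centriole protein, differed by 0.09 ± 0.06.

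Levels between genes can be compared only per length of transcript. On that scale TOP2A was the most abundant member, at 189.6 CPM per kb in LHX2 and 174 CPM per kb in control libraries, followed by UBE2C (106 and 99.0 CPM per kb). KIF5B, the leading transport kinesin, stood at 64.3 and 63.5 CPM per kb, above every mitotic kinesin. Of the mitotic kinesins KIF2C was highest at 49.3 and 46.3 CPM per kb, and CENPE stood at 26.1 and 34.8 CPM per kb. The longest annotated transcript was used as length, which understates a gene that mainly uses a shorter one.

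Partner genes outside the set were taken from 7 lists, in which 16.7% to 37.5% of the tested genes were called, against 32.5% of all genes tested (16.6% higher and 15.8% lower). Of 20 kinetochore partners 2 rose, SKA1 (log2 fold change 0.16) and KNTC1 (0.16), 3 fell, SPDL1 (-0.19), ZW10 (-0.18) and MIS12 (-0.15), and 15 did not pass. The counts were 1 higher and 4 lower without LHX2 replicate 2, and 1 higher and 2 lower without control replicate 1 or 2, the call for KNTC1 being lost in all 3. MIS12 was at the threshold (edgeR adjusted p = 0.05). Its call was lost with library totals alone (-0.13), with a filter of 1 CPM in 3 libraries (-0.15) and in DESeq2 (-0.16). It was also lost with the length and GC correction (-0.11) and without any 1 library except LHX2 replicate 2, at -0.18 to -0.10. In the passenger complex, cohesion and separase list 5 of 16 fell, led by the cohesin subunit RAD21 (-0.19), PDS5A (-0.17) and WAPL (-0.15), and the separase gene ESPL1 rose (0.13). ESPL1 was at 0.00 with the length and GC correction, and its call was also lost in DESeq2 (0.13) and without LHX2 replicate 1 (0.12), control replicate 2 (0.15) or control replicate 3 (0.11). The count of the list was 2 lower without control replicate 2, and 3 lower without LHX2 replicate 2 or control replicate 3. Of 8 condensin genes SMC4 fell (-0.22), SMC2 rose (0.13) and 6 did not pass. By DESeq2 and without LHX2 replicate 1 or 2 or control replicate 1 or 2 no condensin gene was called higher.

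Of 17 genes of the anaphase promoting complex and its regulators 5 fell and 1 rose, with a median of -0.08. ANAPC1 (-0.21 ± 0.04), ANAPC5 (-0.20 ± 0.04) and ANAPC7 (-0.16 ± 0.04) are subunits of the ligase and fell, and ANAPC16 rose (0.19 ± 0.04). Without control replicate 2 the count was 2 lower and 1 higher. Of 21 spindle and cytokinesis partners 6 rose, led by NUMA1 (0.22), KIFC1 (0.21) and CIT (0.14), and CEP55 fell (-0.15). With the length and GC correction 2 rose, with NUMA1 at 0.04, and HAUS6 fell (-0.11), while CEP55 was not called (-0.10). The CEP55 call was also lost with library totals alone and without LHX2 replicate 2 or 3 or any 1 control library, at -0.16 to -0.11. In DESeq2 2 rose, and 2 or 3 rose without LHX2 replicate 1 or 2 or any 1 control library.

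Among 12 genes of the DREAM and MYB-MuvB complexes, which control mitotic transcription, TFDP2 (0.40 ± 0.06) and MYBL2 (0.24 ± 0.05) rose and 10 did not pass. Of 18 tested kinesin light chains, adaptors and dynein genes 6 rose and 12 did not pass. The scaffolds MAPK8IP2 (0.85 ± 0.23) and MAPK8IP1 (0.64 ± 0.16), which link kinesin-1 to cargo, and KIF1BP (0.28 ± 0.08) led them. MAPK8IP2 was low, at 1.02 to 1.25 CPM in LHX2 and 0.585 to 0.676 CPM in control libraries. DYNC1H1, the dynein heavy chain, had 618, 785 and 636 CPM in LHX2 libraries and 591, 556 and 606 CPM in control libraries (0.22 ± 0.07), with LHX2 replicate 2 again the highest, and was at -0.03 with the length and GC correction. The adaptor count was 4 higher without LHX2 replicate 1 or 2, 3 without control replicate 1, 2 without control replicate 2, 2 in DESeq2, and 3 higher and 2 lower after that correction.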

How the data were processed

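Per the labels' protocols, a stranded mRNA kit was used on column-purified RNA. The authors' tools were featureCounts 2.0.0, SAMtools 1.9, TopHat2 2.1.1, bcl2fastq 2.20, FastQC and Bowtie2 2.3.5.1, with the build GRCh38/hg38, per the submitters' processing notes. Gene annotation and strand setting of the counting: not given in the sources used here, so reads of overlapping antisense genes may not be separable. The deposited values are raw read counts per gene, 28265 rows in 6 libraries, without normalization. The name of 1 control column is written in another form, and it was taken as replicate 1 by the number it ends in.

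Low genes were removed by filterByExpr in edgeR (min.prop 0.7, min.count 10, min.total.count 15), and the 14533 left were scaled with TMM factors and compared by the quasi-likelihood test with group as the single term. Benjamini-Hochberg adjustment ran over all of them, with a threshold of 0.05. CPM values are TMM-scaled; SEs come from the F statistic. Transcript length and GC content are those of the longest GENCODE release 29 transcript (14242 of the tested genes). The length and GC correction took from each library a loess surface (span 0.3) of genes with a log2 CPM (prior count 2) over 1, which was centred and used as offset. All 84 members matched RefSeq by gene identifier. The other alternatives were limma-voom, DESeq2, RLE factors, library totals alone, a replicate block, no filter, 1 CPM in 3 libraries as filter, and leaving out each library.

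The members and lists were chosen with earlier results of these data known. Values by library are given for called members of each role (up to 4 each way) and for a set of core genes; others, including CENPA, CENPF, KIF20B, KIF13B, KIF3C, UBE2C and SPC24, were chosen after their values were seen. The fit was tested on simulated data, where it recovered 21 of 50 changes of 1.2-fold, 39 of 50 of 1.5-fold and 50 of 50 of 4-fold. A member that did not pass may thus still have changed slightly. Fits used DESeq2 1.42.0, limma 3.58.1 and edgeR 4.0.16 under R 4.3.3, and tables and plots matplotlib 3.10.9 and pandas 2.3.3 under Python 3.11.15.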

Additional observations from a re-analysis of the deposited data

How the results depend on the processing

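Of 26 members called, 15 passed with the same direction in all 14 alternatives: KIF11, KIF18B, KIF23, CENPE, KIF5A, KIF5C, KIF13A, KIF16B, KIF24, CENPX, SPC25, BUB3, MAD2L1, AURKA and PRC1. The other 11 missed the threshold in at least 1 alternative, and all 26 kept their sign. Of 51 members not called 13 passed in at least 1 alternative, among them KIF13B at -0.16 with the length and GC correction, where its sign turned. The members called lower, 11, were 7 with library totals alone and 7 with a replicate block. The mitotic members called higher, 10, were 6 with a replicate block. The transport kinesins called lower, 1, were 3 with the length and GC correction. The median log2 fold change of the mitotic members, 0.04, was 0.07 with library totals alone and 0.02 with that correction. With single libraries left out, members called lower ranged from 6 to 11, mitotic members called higher from 6 to 11 and lower from 5 to 8, transport kinesins called lower from 1 to 2, the mitotic median from 0.01 to 0.05 and the transport median, 0.08, from 0.03 to 0.17. The causes were not tested, although fits with fewer libraries have less power. Samples share only a replicate number: deviations of same-numbered libraries from their group means had correlations of -0.056, -0.074 and -0.195 over genes, so the block is not a pairing. With it, members called were 11 higher and 7 lower, and MKI67, TOP2A, FOXM1, KIF18A, CENPH, PLK1, KIF2A and CENPV were not called. Depth limits KIF5A, KIF4B, KIF6 and CENPS, whose SEs were 0.13 to 0.39.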
